A study of Drosophila melanogaster with 42 samples.

Results

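Ring glands of Drosophila melanogaster larvae that expressed RasV12 were compared with control glands 18 h before puparium formation, over all 16637 transcripts of the array table. The 6 arrays, 3 per genotype, were taken by their labels from the 42 arrays of the series. Both genotypes carried the phm22 driver (phantom-Gal4), which is active in the prothoracic gland cells of the ring gland. In the RasV12 glands the driver was crossed to RasV12, a constitutively active form of the small GTPase Ras, and in the control glands to w1118, a white-eyed laboratory strain. The labels mark both sets of larvae as blue-gut, by the dyed food still in the gut, and give developmental acceleration as the phenotype of the RasV12 cross. The series also holds glands of both genotypes and of a torso-RNAi cross at 8 and 18 h before puparium formation, and a wild-type time course of ring glands and whole larvae at 4, 8, 24 and 36 h into the third instar. The titles of the 8 h samples give 18 h with a partly cleared gut, while their sources give 8 h. The source was followed, and every 8 h value below rests on that choice.

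The ring gland is a compound endocrine organ that holds the prothoracic gland, which makes ecdysone, together with the corpus allatum, which makes juvenile hormone, and the corpora cardiaca, which make adipokinetic hormone. The brain neuropeptide PTTH binds the receptor tyrosine kinase Torso on prothoracic gland cells and acts through Ras, Raf and MAP kinase to raise ecdysone production before metamorphosis. Active Ras in these cells is known to make larvae pupariate early, and loss of Torso to delay them. RNA of the whole dissected organ was measured, so fewer cells of a type and less RNA per cell cannot be told apart, and the cells of the organ in which the driver is silent contributed to both sides.

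Each value is an intensity on a linear scale, summarised by the authors per transcript identifier. The files name no genes, and only 44 of the 16637 identifiers could be named from the RefSeq gene table for assembly Release 6 plus ISO1 MT, 16 of them as 1 gene and 28 as several genes. None of the 23 marker genes of ring gland parts and neighbouring tissues (0 of 23) was measured under a name, so the labelled tissue was not checked by its markers, and the level of Ras itself was not read. Of the 14 gene lists (ecdysone synthesis, the Torso and Ras pathway, ecdysone response and others), 10 had 0 named members. The other lists held mio and Wdr24 (2 of 22 genes of insulin, Tor and GATOR signalling), SuUR (1 of 20 endocycle genes), kis, HDAC3, SuUR and His4r (4 of 13 chromatin genes) and LanA (1 of 9 basement membrane genes).

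RasV12 glands differed from controls at a large share of transcripts. With limma and Benjamini-Hochberg adjustment over all 16637 transcripts, 7402 differed at an adjusted p under 0.05, which is 44.5% of those tested. Of these, 3800 (22.8%) were higher in RasV12 glands and 3602 (21.7%) were lower. The 3 RasV12 arrays lay wholly above the 3 control arrays for 4843 transcripts (29.1%) and wholly below them for 4334 (26.1%). Across transcripts, which are not independent, control arrays correlated with each other at r between 0.9883 and 0.9946, RasV12 arrays between 0.9839 and 0.9881, and the 9 pairs of 1 control and 1 RasV12 array between 0.9581 and 0.9727. The spread within a genotype was thus smaller than the distance between genotypes in every pair. Array medians were 381.5, 385.7 and 381.9 in controls and 354.1, 356.0 and 348.8 in RasV12 glands.

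Most of these differences were small, and the large ones were more often decreases. The middle 50% of transcripts lay between -0.41 and 0.41 on the log2 scale, with a median of 0.06. A change of at least 2-fold was called for 815 transcripts upward (4.9%) and 1521 downward (9.14%), and a change of at least 4-fold for 204 upward and 323 downward. At 8-fold the order turned, with 84 upward and 47 downward, and at 64-fold 5 transcripts rose and 1 fell. Transcripts were split by mean intensity into 4 classes of nearly equal number. In the lowest class (2.09 to 21.8), 490 transcripts (11.8%) rose and 240 (5.77%) fell, with 157 rises and 175 falls of at least 2-fold. In the second class (21.8 to 361) 672 (16.2%) rose and 1158 (27.8%) fell, 350 and 772 of them at least 2-fold. In the third class (361 to 2345) 1195 (28.7%) rose and 1400 (33.7%) fell, 247 and 424 of them at least 2-fold. In the highest class (2345 to 36056) 1443 (34.7%) rose and 804 (19.3%) fell, but only 61 rises and 150 falls there were at least 2-fold.

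**Figure D1:**
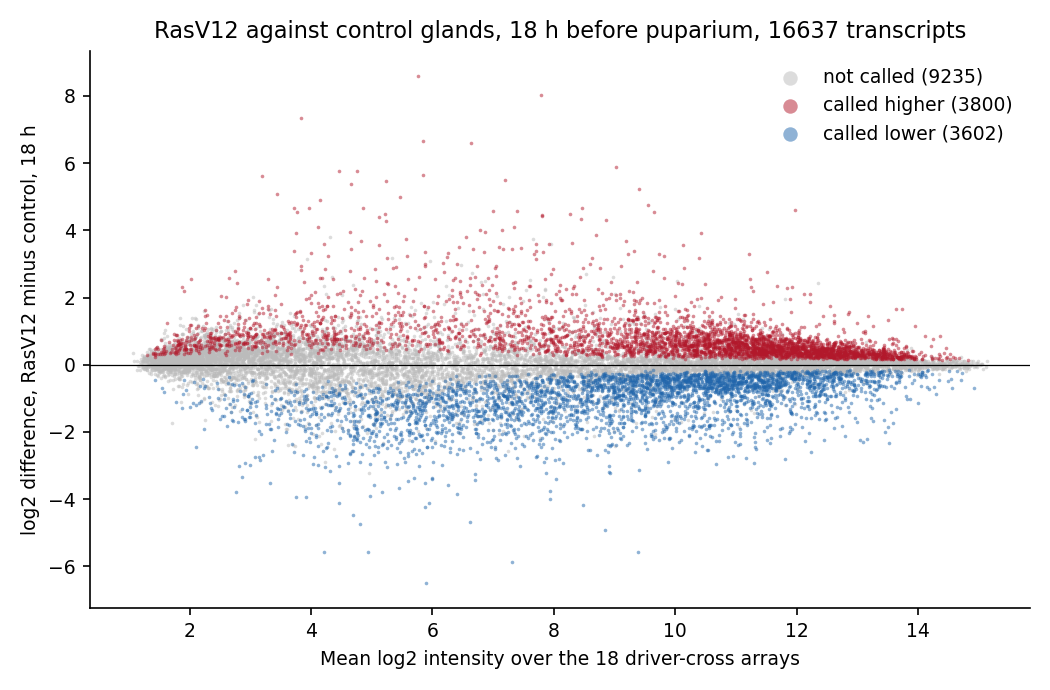
Log2 difference in intensity between RasV12 and control glands 18 h before puparium formation (vertical axis) against the mean log2 intensity over the 18 driver-cross arrays (horizontal axis), 1 point per transcript. Red points are the 3800 called higher, blue points the 3602 called lower and grey points the rest; the largest rises, above 6 log2 units, lie among dim and middling transcripts.

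The largest differences belonged to transcripts that the tables do not name. Named by identifier here are the top 2 rises of the 3678 transcripts (22.1%) called higher with no overlap between genotypes, and the top 2 falls of the 3499 (21.0%) called lower in that way. These values chose them. FBtr0071716 read 7.12, 6.51 and 7.45 in the 3 control arrays and 3202, 2223 and 2778 in the 3 RasV12 arrays. It passed from the dim end of the array to well above the array median, a rise of 8.59 ± 0.18 on the log2 scale (SE, limma adjusted p = 3.3e-12). The controls lay near the floor of the arrays, so the size depends on small values, and with a pseudocount of 32 it was 6.13. The 6 other arrays at 8 h gave 8.00, 7.85 and 10.6 in controls and 1366, 1243 and 1767 in RasV12 glands. Torso-RNAi glands at 18 h were dim too, with 8.86, 10.5 and 10.5. Their log2 difference from the same controls was 0.50 ± 0.18, only just called (limma adjusted p = 0.041) and on values near the floor. In the wild-type part, which was normalized separately, the group means of FBtr0071716 in ring glands ran from 24.6 to 27.9. Whole larvae were at 71.3 ± 3.7 at 4 h, 173 ± 71.4 at 8 h, 616 ± 425 at 24 h and 1573 ± 867 at 36 h (SD, n = 3). The larval arrays thus spread widely at the later times.

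FBtr0076196 read 13.3, 18.5 and 7.55 in controls and 16157, 14916 and 134 in RasV12 glands. The third RasV12 array was above every control array but far below the others of its group. The log2 difference was 8.02 ± 1.67 (SE, limma adjusted p = 0.0014), or 6.25 with a pseudocount of 32, and its size rested on that array, at 10.3 without RasV12 replicate 3 and 6.84 without RasV12 replicate 1. At 8 h the controls gave 28.5, 17.2 and 34.7 and the RasV12 glands 7782, 10231 and 10521. Torso-RNAi glands read 14.2, 9.15 and 9.41 at 18 h and 5210, 3970 and 72.6 at 8 h, so high and low arrays also stood side by side in that group.

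In the other direction, FBtr0113863 read 2255, 2646 and 2512 in controls and 21.5, 54.3 and 18.0 in RasV12 glands, a log2 difference of -6.48 ± 0.53 (SE, limma adjusted p = 8.3e-07), or -5.35 with a pseudocount of 32. At 8 h it read 2396, 2952 and 2488 in controls and 11.5, 6 and 17.9 in RasV12 glands. Torso-RNAi glands were low too, with 2.98, 6.99 and 3.11 at 18 h. FBtr0077115 read 2311, 2802 and 2778 in controls and 54.4, 49.3 and 33.5 in RasV12 glands, a log2 difference of -5.87 ± 0.26 (SE, limma adjusted p = 8.1e-09), or -5.10 with that pseudocount. Its torso-RNAi values were 30.0, 32.9 and 35.0 at 18 h. Both transcripts were thus low in the RasV12 and torso-RNAi crosses and high in the w1118 cross, at both times. The wild-type part, normalized separately, is labelled w1118 too. There the group means of FBtr0113863 were 590 to 1223 in ring glands and 22.6 to 42.4 in whole larvae. Those of FBtr0077115 were 2021 to 2275 in ring glands and 2403 to 2676 in larvae. The parental stock differed between the crosses along with the transgene, and the part of each was not tested.

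**Figure D2:**
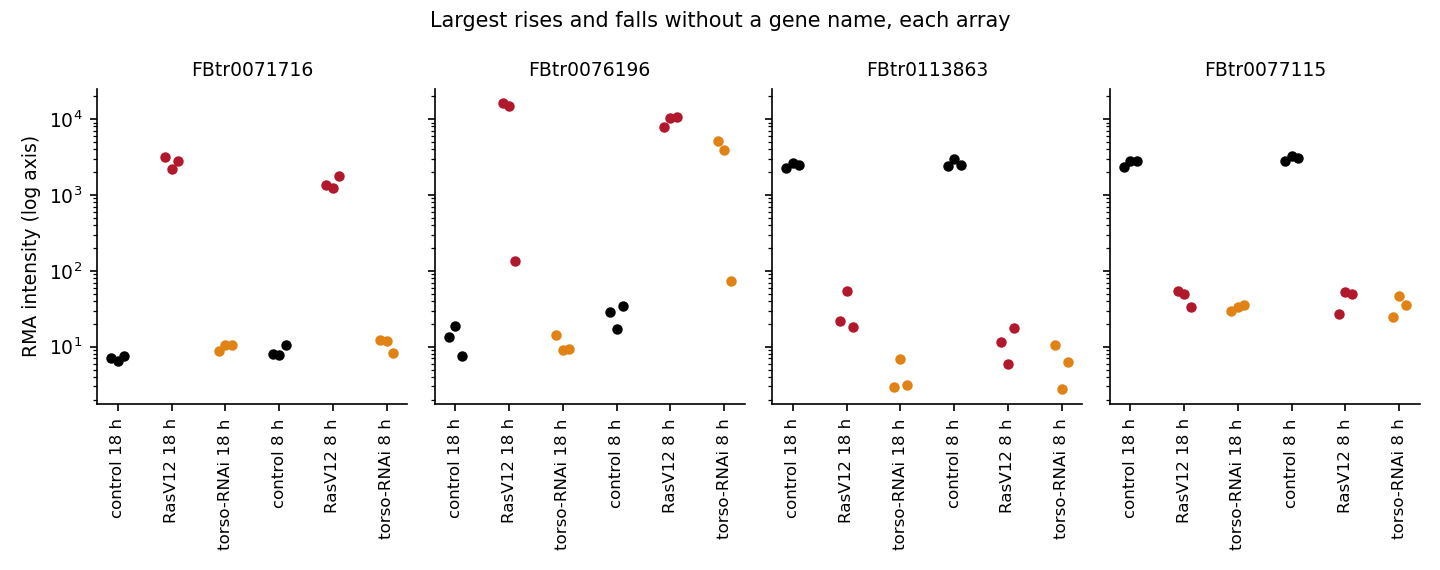
Intensity on a log axis of the 4 unnamed transcripts with the largest rises and falls, 1 point per array, in control, RasV12 and torso-RNAi glands at 18 and 8 h before puparium formation. FBtr0071716 is at 1243 or more in all RasV12 arrays and at 12.2 or less in the others, while FBtr0113863 and FBtr0077115 are at 2255 or more in all control arrays and at 54.4 or less in the rest.

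Few transcripts passed from dim to bright. With controls all under an intensity of 32 and RasV12 arrays all at 256 or more, 8 transcripts were switched on. The 8 h arrays called all 8 higher too, where 20.0% of all transcripts were. Of the 8, 7 had all 3 torso-RNAi arrays at 18 h under 32. They were chosen for dim controls, and the share among all transcripts with dim controls was not taken, so that count describes these 8. The reverse held for 1 transcript, which was called lower at 8 h as well, where 22.3% of all were. Its 3 torso-RNAi arrays at 18 h were also under 32. Among the 84 transcripts called at least 8-fold higher, the median intensity was 35.9 in controls and 739 in RasV12 glands. In 20 of the 84 the highest RasV12 array was at least 4-fold above the lowest, against 6 of 84 for controls. RasV12 replicate 3 was the highest of the 3 in 38 of them, replicate 2 in 24 and replicate 1 in 22. These values chose the 84, and the like shares over all transcripts were not taken. Over all transcripts RasV12 arrays also deviated more from their group mean. The SDs of the log2 deviations were 0.346, 0.369 and 0.403, and 0.232, 0.340 and 0.290 in controls. Among the 47 called at least 8-fold lower, the median was 219 in controls and 16.7 in RasV12 glands.

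The 16 transcripts of 1 gene leaned downward. At 18 h 0 of the 16 rose, 9 fell and 7 did not pass the test, against 22.8% and 21.7% of all transcripts, and their median difference was -0.20 against 0.06. Only 3 falls reached 2-fold, those of NaPi-III, sle and kis. The genotypes did not overlap for 11 of the 16, and in all 11 the RasV12 arrays lay wholly below the controls. Over all transcripts 26.1% lay wholly below and 29.1% wholly above. Torso-RNAi glands at 18 h, which share the controls, had 6828 called transcripts (41.0%), with 3074 higher (18.5%) and 3754 lower (22.6%), and of the 16 named ones 1 rose and 6 fell there. The names were fixed by what the reference table happens to hold, not by function, so the count describes these 16.

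NaPi-III, a sodium-dependent phosphate transporter, fell most. It read 1093, 1913 and 990 in control glands and 371, 422 and 390 in RasV12 glands (means 1332 ± 506 and 394 ± 26.1, SD, n = 3). The lowest control array was thus more than 2 times the highest RasV12 array, and control replicate 2 stood above the others. RasV12 glands held 30.9% of the control level, a log2 difference of -1.70 ± 0.19 (SE, limma adjusted p = 1.1e-05). At 8 h the means were 755 ± 32.4 and 232 ± 37.7, a difference of -1.71. The RasV12 level at 18 h was also below that of the controls taken 10 h closer to puparium formation, with a log2 difference of -0.94 (limma adjusted p = 0.0012). Torso-RNAi glands at 18 h, measured against the same controls, gave 1142 ± 86.8 and a difference of -0.16 that did not pass the test (limma adjusted p = 0.55). Fatp1, the other transporter, a protein of fatty acid uptake, read 4745, 4901 and 5051 in controls and 4256, 4027 and 4516 in RasV12 glands. Its arrays did not overlap, yet the difference of -0.20 ± 0.16 did not pass (limma adjusted p = 0.32). At 8 h the Fatp1 difference was -0.50 and did (0.02), but the test between the times did not pass (0.30, limma adjusted p = 0.47).

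Of the 4 chromatin genes 3 fell, kis, HDAC3 and His4r, where 21.7% of all transcripts did, and the call of His4r held in 2 of the 6 fits that left out 1 array. kis encodes kismet, a chromodomain remodeller of the trithorax group. It read 1443, 1573 and 1570 in controls and 697, 763 and 690 in RasV12 glands (1528 ± 73.9 and 717 ± 40.5, SD, n = 3). The log2 difference was -1.09 ± 0.12 (SE, limma adjusted p = 7.2e-06), which left 46.9% of the control level. At 8 h it was -0.72, and torso-RNAi glands at 18 h gave -1.42, so kis was below the shared controls in both crosses. HDAC3, a histone deacetylase, fell slightly, from 4704, 4972 and 4895 to 4222, 4014 and 4042 (-0.25 ± 0.05, limma adjusted p = 0.0022). At 8 h its difference was -0.24, and in torso-RNAi glands at 18 h it was 0.01. His4r, a replacement histone H4, was among the brightest transcripts, with 18451, 17088 and 17550 in controls and 15832, 16198 and 15209 in RasV12 glands. Its difference of -0.17 ± 0.06 only just passed (limma adjusted p = 0.027) and was lost without control replicate 1 (0.11), control replicate 3 (0.05), RasV12 replicate 1 (0.054) or RasV12 replicate 3 (0.095), and with the 6 compared arrays alone (0.14). SuUR slows replication in the underreplicated regions of polytene chromosomes. Its controls read 711, 676 and 694 and its RasV12 glands 736, 617 and 668, which overlap (-0.05 ± 0.07, limma adjusted p = 0.63). At 8 h the SuUR difference was -0.31 (limma adjusted p = 0.0034), but the test between the times did not pass (0.26, limma adjusted p = 0.14). In torso-RNAi glands at 18 h, against the same controls, SuUR gave -0.73 (limma adjusted p = 3.5e-06) and His4r 0.22 (0.0058).

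**Figure D3:**
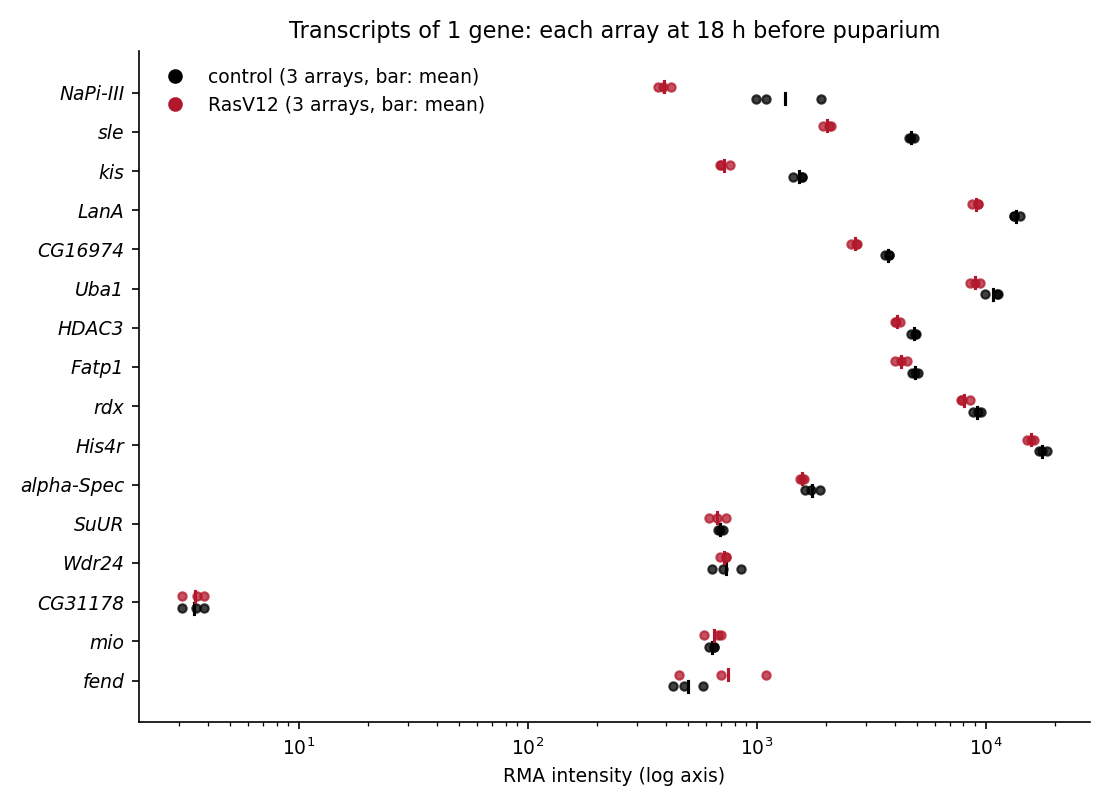
Intensity (log axis) of the 16 transcripts of 1 gene in control (black) and RasV12 (red) glands 18 h before puparium formation, with 1 point per array, 3 arrays per genotype and a bar at each mean. The RasV12 points of NaPi-III, sle, kis and LanA lie clear below the control points, while those of mio, Wdr24 and SuUR overlap with them.

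sle, slender lobes, encodes a nucleolar protein. It read 4701, 4876 and 4627 in controls and 2110, 2059 and 1946 in RasV12 glands, with little spread in either (4735 ± 128 and 2038 ± 83.8, SD, n = 3). The log2 difference was -1.22 ± 0.11 (SE, limma adjusted p = 2e-06). At 8 h controls were at 3588 ± 167 and RasV12 glands at 2097 ± 91.2, which gave -0.77. The RasV12 glands at 18 h were below the 8 h controls as well, by a log2 difference of -0.82. For sle, torso-RNAi glands at 18 h gave -0.80 against the shared controls (limma adjusted p = 6.3e-05). LanA, an alpha chain of the basement membrane protein laminin, read 13356, 14073 and 13295 in controls and 8731, 9296 and 9224 in RasV12 glands. That is 66.9% of the control level (-0.58 ± 0.07, limma adjusted p = 1.9e-05), and torso-RNAi glands gave -0.60 against the same controls. alpha-Spec, a membrane skeleton spectrin, read 1732, 1885 and 1625 in controls and 1610, 1570 and 1547 in RasV12 glands. The arrays did not overlap, but the -0.15 ± 0.07 did not pass at 18 h (limma adjusted p = 0.12), whereas -0.46 at 8 h did (2e-04). The test between the times did not pass for alpha-Spec (0.31, limma adjusted p = 0.084). Torso-RNAi glands at 18 h gave 0.19 for alpha-Spec (limma adjusted p = 0.057).

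Uba1, the enzyme that activates ubiquitin, read 11312, 11167 and 9962 in controls and 9015, 9437 and 8572 in RasV12 glands (-0.26 ± 0.07, limma adjusted p = 0.0093); the call was lost with the 6 compared arrays alone (0.07). rdx, roadkill, is a substrate adaptor of Cullin-3 ubiquitin ligases. Its controls read 9266, 9541 and 8794 and its RasV12 glands 8503, 7819 and 7865, a difference of -0.19 ± 0.07 (limma adjusted p = 0.03). The rdx call was lost without control replicate 1 (0.074), control replicate 2 (0.1), RasV12 replicate 2 (0.091) or RasV12 replicate 3 (0.087), and with the 6 compared arrays alone (0.12). CG16974, for which no role is given here, fell from 3771, 3789 and 3637 to 2718, 2737 and 2592 (-0.48 ± 0.08, limma adjusted p = 0.00039). Torso-RNAi glands at 18 h, over the same controls, gave -1.10 for CG16974 (limma adjusted p = 5.3e-07). They gave -0.46 for Uba1 (0.00017) and 0.05 for rdx (0.56).

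The nutrient-sensing and remaining genes did not pass. mio and Wdr24 encode subunits of GATOR2, a complex that keeps the growth regulator TORC1 active. mio read 619, 648 and 651 in controls and 695, 679 and 586 in RasV12 glands (0.03 ± 0.12, limma adjusted p = 0.87). Wdr24 read 640, 715 and 851 in controls and 735, 732 and 693 in RasV12 glands (-0.02 ± 0.10, limma adjusted p = 0.88). Their arrays overlapped in both cases. fend, forked end, known from motor axon growth, had the widest spread of RasV12 arrays relative to their level among the 16, with 456, 1093 and 699 against 481, 585 and 430 in controls. Its difference of 0.51 ± 0.26 did not pass (limma adjusted p = 0.14), and of the 6 fits that left out 1 array it passed only without RasV12 replicate 1 (0.82, limma adjusted p = 0.014). Without RasV12 replicate 2 the fend difference was 0.19 (limma adjusted p = 0.55). CG31178 was near the floor of the arrays in both genotypes, with values from 3.09 to 3.84.

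For 27 of the 28 transcripts that the table gives to several genes, it marks 1 gene as an upstream and another as the main reading frame of the same RNA, so a single array value covers both. At 18 h 8 of the 28 rose, 5 fell and 15 did not pass, with a median of 0.11. These counts are near the shares of all transcripts, 22.8% higher and 21.7% lower with a median of 0.06. The 13 called ones lie outside the naming rule, since their gene is not unique, and were picked for naming after their values were seen.

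The largest rise was that of the transcript of lmgA and lmgB, the genes of the lemming locus. It read 339, 343 and 442 in controls and 658, 734 and 655 in RasV12 glands (0.87 ± 0.13, limma adjusted p = 1e-04), and rose by 0.56 at 8 h. Torso-RNAi glands gave -0.17 against the same controls. The transcript of Rad1, a subunit of the DNA damage checkpoint clamp, shared with Sws1, read 972, 793 and 1043 in controls and 1484, 1056 and 1485 in RasV12 glands (0.51 ± 0.14, limma adjusted p = 0.0088). RasV12 replicate 2 was close to the highest control, and the call was lost with the 6 compared arrays alone (0.079). Mettl5, a ribosomal RNA methyltransferase, shared with CG42374, rose from 3215, 2916 and 3271 to 3960, 4413 and 4300 (0.43 ± 0.07, limma adjusted p = 3e-04). The Tfb5 transcript, whose gene encodes a TFIIH subunit and which is shared with CG31917, rose from 3097, 2829 and 3676 to 4058, 4291 and 4228 (0.40 ± 0.10, limma adjusted p = 0.0039). The arrays of each of these 4 transcripts did not overlap. In torso-RNAi glands at 18 h the Mettl5 transcript gave 0.45 (limma adjusted p = 0.00023), that of Rad1 -0.07 and that of Tfb5 -0.09.

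The 4 other rises were between 0.20 and 0.33, and those of 3, all but the Ppcdc transcript, were lost when certain single arrays were left out. The transcript of Polr3K, an RNA polymerase III subunit, and Tcs1 gave 0.33 ± 0.11 (limma adjusted p = 0.031) and passed when control replicate 1 was left out, but did not pass when any of the 5 other arrays was (adjusted p up to 0.11), nor under repeated quantile scaling (0.06) or array weights (0.069). The transcript of Ppcdc, an enzyme of coenzyme A synthesis, and CG42496 gave 0.30 ± 0.08 (limma adjusted p = 0.0086, and 0.054 with the 6 compared arrays alone). The transcript of Dpm2, of dolichol-phosphate mannose synthesis, and CG12016 gave 0.26 ± 0.09 (limma adjusted p = 0.022) and was lost without control replicate 1 or 2 or RasV12 replicate 1 or 2, with adjusted p up to 0.098, and with the 6 compared arrays alone (0.092). The Gint3 and CG42306 transcript gave 0.20 ± 0.06 (limma adjusted p = 0.017) and was lost without control replicate 2 (0.08) or RasV12 replicate 1 (0.05), under repeated quantile scaling (0.11), with centred arrays (0.063) and with the 6 compared arrays alone (0.1). In torso-RNAi glands at 18 h the Dpm2 transcript gave 0.71, that of Polr3K 0.37, that of Ppcdc -0.01 and that of Gint3 -0.23.

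Of the 5 that fell, the transcript of CG42502 and CG10570 moved most, from 2707, 1532 and 1507 in controls to 708, 533 and 343 in RasV12 glands (-1.86 ± 0.45, limma adjusted p = 0.0039). At 8 h its difference of -0.26 did not pass (limma adjusted p = 0.69). The test between the times, at -1.61 ± 0.64, did not pass either (limma adjusted p = 0.14). The CG42512 and CG32573 transcript fell from 577, 440 and 632 to 187, 274 and 167 (-1.41 ± 0.22, limma adjusted p = 0.00016), and by 0.63 on the log2 scale at 8 h. Mvk encodes mevalonate kinase, an enzyme of the mevalonate pathway, which in insects leads to juvenile hormone and not to sterols. Its transcript, shared with CG33672, read 3414, 3209 and 3066 in controls and 2398, 2554 and 2424 in RasV12 glands (-0.39 ± 0.08, limma adjusted p = 0.0017). It was lower at 8 h as well (-0.43), while torso-RNAi glands at 18 h gave 0.41. The transcript of Pbp49, a subunit of the complex that binds the promoters of small nuclear RNA genes, and CG42516 fell from 6911, 7466 and 6556 to 5075, 4999 and 5068 (-0.47 ± 0.08). That of CG45088 and CG6191 fell from 2549, 2554 and 2752 to 1790, 1819 and 1961 (-0.50 ± 0.10).

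**Figure D4:**
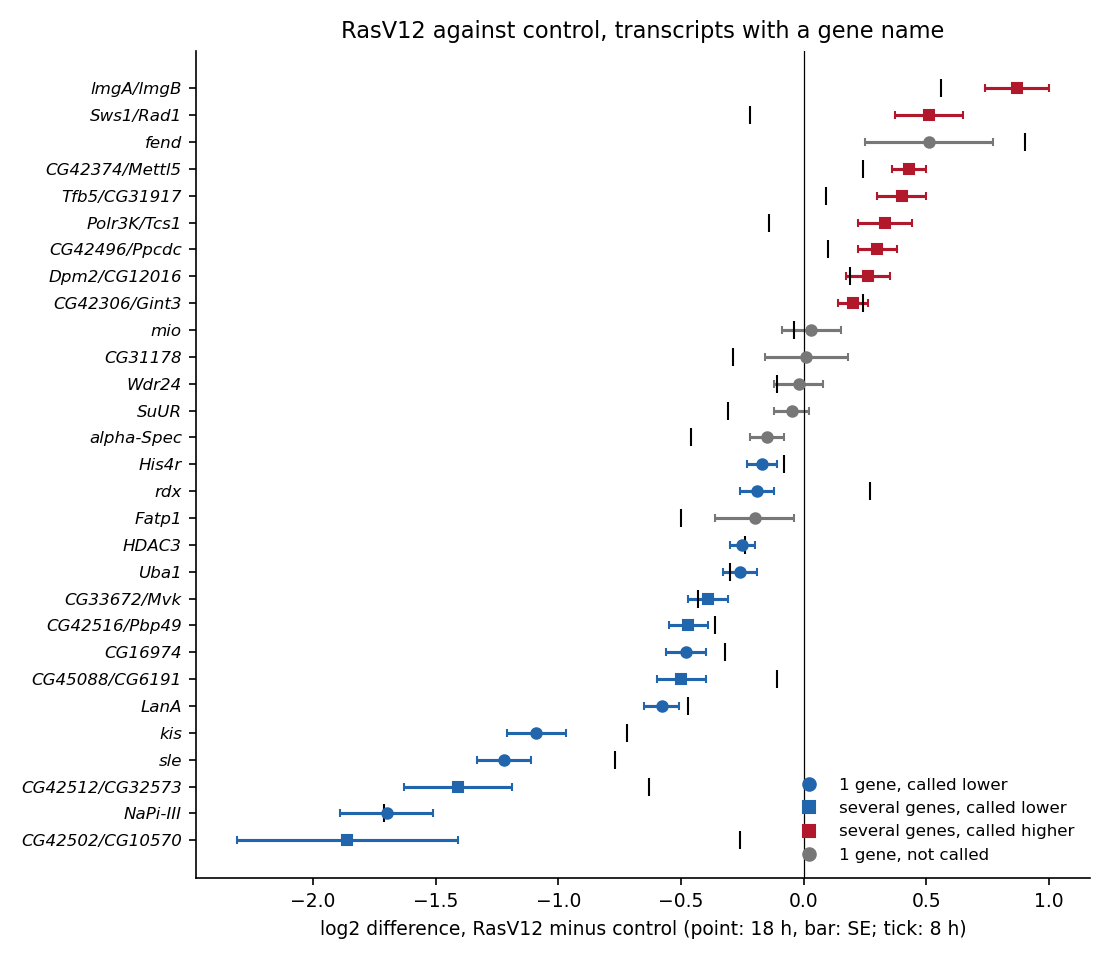
Log2 difference between RasV12 and control glands (horizontal axis) for the 16 transcripts of 1 gene (circles) and the 13 called transcripts of several genes (squares). Points and bars give the 18 h difference and its limma standard error, red for called higher, blue for called lower and grey for not called. Ticks give the 8 h difference. NaPi-III has both near -1.70, while the CG42502 and CG10570 transcript is at -1.86 and -0.26. For the latter the test between the times did not pass.

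The same contrast at 8 h compares arrays that the 18 h contrast does not, but the model took the spread of each transcript from all 18 arrays, so the calls at both times share their error estimate. There 7037 transcripts (42.3%) differed, 3331 (20.0%) upward and 3706 (22.3%) downward. For the 815 transcripts that had risen at least 2-fold at 18 h, the 8 h arrays called 535 (65.6%) higher and 13 (1.6%) lower. Their median difference was 1.43 by the 18 h arrays and 0.99 by the 8 h arrays. Of the 1521 called at least 2-fold lower, 1080 (71.0%) were also lower at 8 h and 27 (1.78%) higher, with medians of -1.51 and -1.15. Both lists were chosen by their large 18 h differences, and that choice alone can leave smaller medians in the 8 h arrays. The medians were therefore not read as a change of the RasV12 effect with time. The largest classes held most: 66 of the 84 called at least 8-fold higher and 43 of the 47 called at least 8-fold lower were called the same way at 8 h and 0 the other way. Among the smaller calls, 1690 of 2985 rises (56.6%) and 1362 of 2081 falls (65.4%) were. With each time fitted on its own 6 arrays, 520 of 760 rises of at least 2-fold (68.4%) and 1013 of 1367 such falls (74.1%) were called the same way at 8 h, where that fit called 18.4% of all transcripts higher and 21.0% lower. Across all transcripts the 18 h and 8 h differences correlated at r = 0.68, as a description over points that share the array design and the normalization.

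**Figure D5:**
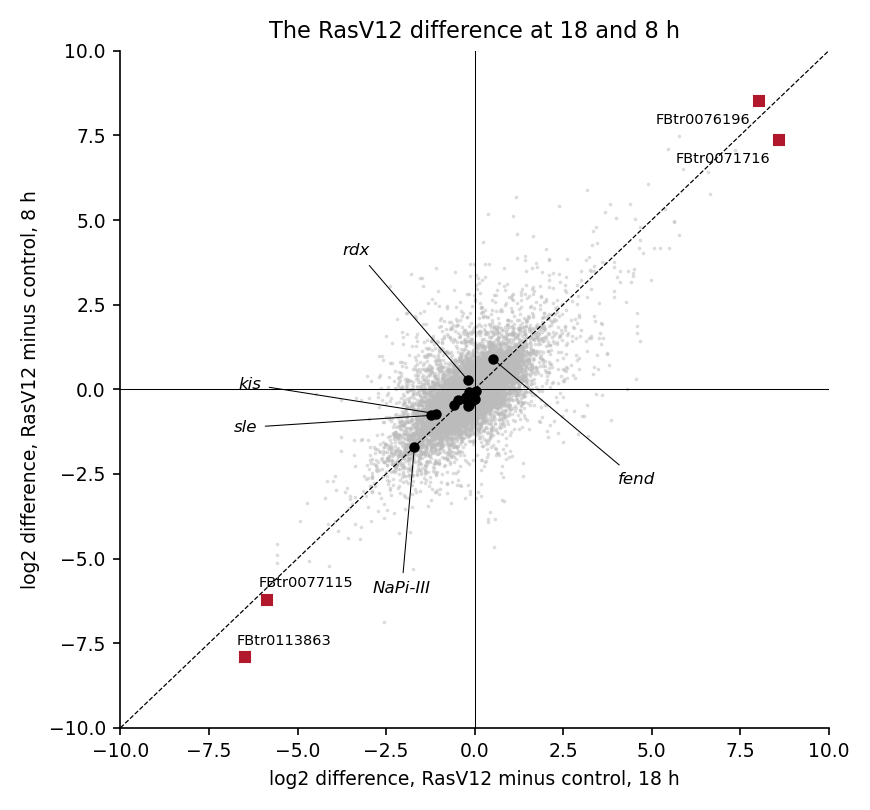
Log2 difference between RasV12 and control glands at 18 h (horizontal axis) and at 8 h (vertical axis), 1 grey point per transcript, with the 16 named transcripts in black and the 4 unnamed ones in red; the dashed line marks equal differences. NaPi-III lies on the line at -1.70 and -1.71, and rdx is the named transcript called in opposite directions.

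The difference between the RasV12 effect at 18 h and at 8 h was itself called for 1245 transcripts (7.48%), with 780 (4.69%) higher at 18 h and 465 (2.79%) lower. For 415 of them the effect was called only at 18 h, for 402 only at 8 h, for 255 at both in the same direction and for 171 at both in opposite directions. Of the opposite ones, 111 were higher in RasV12 glands at 18 h and lower at 8 h. Among the 16 named transcripts rdx alone was in this set.

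RasV12 glands at 18 h were also set against the controls taken 10 h nearer to puparium formation, since the labels call the development of RasV12 larvae accelerated. That comparison called 7362 transcripts (44.3%), 3559 upward (21.4%) and 3803 downward (22.9%). The comparison at equal time before puparium formation, with which it shares the RasV12 arrays, called 7402. These times count back from puparium formation and are not larval ages, so a difference in age between the genotypes was not tested. Of the 16 named transcripts 0 rose and 10 fell in it, with a median of -0.21. Single RasV12 arrays at 18 h correlated with control arrays at r between 0.9581 and 0.9727 at 18 h and between 0.9534 and 0.9751 at 8 h, so the ranges overlapped.

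The wild-type time course gave lists of transcripts that move with age in the gland, chosen without the driver-cross arrays. Of the 304 that rose at least 2-fold in wild-type glands from 24 to 36 h, 96 (31.6%) were higher and 67 (22.0%) lower in RasV12 glands, against 22.8% and 21.7% of all transcripts. Their median was 0.19, and by RasV12 array 0.12, 0.38 and 0.08 (SD 0.16). Of the 330 that fell with age, 33 (10%) were higher and 81 (24.5%) lower, with a median of -0.44 and array values of -0.24, -0.63 and -0.36 (SD 0.20). Over all transcripts the array medians were 0.05, 0.06 and 0.01, so in 2 of the RasV12 arrays the first list lay within 0.1 of them. Replicate 2 lay farthest out in both. Without it the medians were 0.08 and -0.26, and without replicate 3 the first was 0.29. At 8 h the medians were 0.10 and -0.14, and in torso-RNAi glands at 18 h, over the same controls, they were -0.77 and 1.53.

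Transcripts of other larval tissue varied between the RasV12 arrays in the same comparison. The 184 transcripts at least 16-fold lower in wild-type glands than in whole larvae at all 4 times summed to 11084, 9769 and 11336 in controls and to 10772, 6150 and 17873 in RasV12 glands. RasV12 replicate 2 was lowest and replicate 3 highest, and the genotypes overlapped. Of these 184, 13 were called higher and 15 lower, smaller shares than the 22.8% and 21.7% of all transcripts. The 184 were chosen for low levels in glands, and dim transcripts were called less often. In the lowest intensity class the shares were 11.8% and 5.77%, so the low shares do not mark the 184 as steady. Only 2 of the 304 and 7 of the 330 transcripts of the age lists were among the 184, and the medians without these stayed at 0.19 and -0.44. The 38 transcripts at least 16-fold higher in wild-type glands than in larvae, a list added after the data were seen, summed to 306852, 293485 and 293654 in controls and 253929, 268225 and 255946 in RasV12 glands. Here the genotypes did not overlap, and 6 of the 38 were called higher and 16 lower (median -0.26), beside 22.8% and 21.7% of all transcripts (median 0.06). The part that the make-up of the dissected tissue had in the differences was not tested.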

How the data were processed

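RNA was measured on 1-colour Cy3 NimbleGen arrays. The deposited intensity values were used as given; per the submitters' processing notes the authors computed them with RMA. The sources used here do not say which chip held which array, so a chip effect was not tested. The driver-cross and wild-type arrays had different lowest values (1.83 to 2.06 and 8.23 to 9.52) and were taken as normalized separately; no test crosses them. Driver-cross medians were 348.8 to 393.6, and 0 arrays were identical. Precision is limited by the 3 arrays per group.

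All intensities were log2-transformed with no pseudocount. A limma model (version 3.58.1, R 4.3.3) of group means was fitted to the 18 driver-cross arrays, with empirical Bayes and Benjamini-Hochberg adjustment over 16637 transcripts. A call is an adjusted p under 0.05, 2-sided. Named are transcripts that the reference table gives to exactly 1 gene, and the 2 largest rises and falls among unnamed ones called without overlap. The comparison, lists and rules were chosen with earlier results of these data known. Tested on simulated data over 16637 transcripts for the 18 h comparison, the fit recovered 52% of 1.5-fold, 60% of 2-fold, 90% of 4-fold and 96% of 8-fold changes. The simulation changed 50 transcripts at each of these folds and left the rest unchanged, of which 12 were falsely called. The real comparison called 44.5%, so these rates do not give its sensitivity. Alternatives were other scalings, filters, pseudocounts, variance models, fold minimums, single arrays left out and the replicate number as a block. At 18 h same-numbered RasV12 and control arrays deviated from their group means with r of 0.011, -0.005 and -0.022, so no pairing was seen. At 8 h these were 0.05, 0.145 and 0.068, and differently numbered pairs ran from -0.118 to 0.044. With the replicate number as a block, 7037 transcripts were called at 8 h and 1255 for the difference between times.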

Additional observations from a re-analysis of the deposited data

Results flagged for a closer look

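For 3 of the transcripts described above, the test of the difference between the RasV12 effects at 18 h and at 8 h passed in limma with Benjamini-Hochberg adjustment, where 7.48% of all transcripts did. FBtr0071716 was above control by 8.59 on the log2 scale at 18 h and by 7.37 at 8 h, a difference of 1.22 (adjusted p = 0.014). Its controls lay near the floor of the arrays, and with a pseudocount of 32 these were 6.13 and 5.18, a difference of 0.96 (adjusted p = 0.0045). rdx fell at 18 h (-0.19) and rose at 8 h (0.27, from 9171 ± 425 in controls to 11094 ± 533, SD, n = 3), a difference of -0.47 (adjusted p = 0.01); its 18 h call depended on single arrays. The Sws1 and Rad1 transcript rose at 18 h (0.51) and had -0.22 at 8 h, which did not pass (adjusted p = 0.23), a difference of 0.73 (adjusted p = 0.039) that was lost under repeated quantile scaling (0.063) and with the 12 compared arrays alone (0.085). What lies behind these differences was not tested.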

How the results depend on the processing

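The count of 7402 transcripts stayed between 6187 (the 6 compared arrays alone) and 7839 (array weights) under the alternatives other than a 2-fold minimum, and between 6190 and 6894 with single arrays left out; a block on the replicate number gave 7328 (3738 higher, 3590 lower), and no named transcript changed its side under it. The share of calls that were higher was 51.3%, 46.9% with centred arrays and 34.9% with a 2-fold minimum. With that minimum the counts were 2336 (815 higher, 1521 lower) at 18 h, 2239 at 8 h, 2468 for RasV12 at 18 h against control at 8 h, 2073 for torso-RNAi and 487 for the difference between times. That last count, 1245, was the least stable: it was 1995 with array weights, and with single arrays left out it ran from 703 (without control replicate 3 at 8 h) to 1436, with 726 without control replicate 2 at 18 h and 815 without RasV12 replicate 1 at 8 h. The cause was not tested. Signs turned only for transcripts that were not called: CG31178 (-0.11), SuUR (0.06) and Wdr24 (0.08) under quantile scaling, CG31178 (-0.03) and mio (-0.01) with centred arrays, and CG31178 (-0.10) and Wdr24 (0.07) with array weights. With single arrays left out these ran from -0.08 to 0.10 for CG31178, from -0.11 to 0.02 for SuUR, from -0.12 to 0.09 for Wdr24 and from -0.02 to 0.10 for mio. With a pseudocount of 32 the largest rises were 6.13 for FBtr0071716 and 6.25 for FBtr0076196, and the age-list medians 0.15 and -0.34. Differences among dim transcripts rest on values close to the floor of the arrays.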
